A study of Mus musculus with 2 samples.

Results

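The genes described here are 10 members of the Notch pathway: the receptors Notch1, Notch2 and Notch3, the ligands Jag1, Jag2 and Dll1, the receptor-modifying enzyme Lfng, and the response genes Hes1, Hey1 and Nrarp. They were chosen by gene symbol from the 22072 symbols of 2 transcript tables of mouse lung epithelium. All 10 were found, each with 1 RefSeq transcript row and a successful abundance estimate in both libraries. The first library, which the labels call Mst1/2 CKO or Mst1/2 D/D (conditional knockout; below, the CKO library), came from adult mice with the transgenes Scgb1a1-rtTA and tetO-Cre and floxed Mst1 and Mst2 alleles (Mst1-flx/flx;Mst2-flx/flx). In these mice doxycycline switches on Cre through the Scgb1a1 promoter, which is active in the non-ciliated secretory cells (club cells) of the bronchioles. The control library came from adult mice with tetO-Cre and the same floxed alleles but without the Scgb1a1-rtTA activator. Doxycycline was given to both genotypes in the food (625 mg/kg, 16 days). To enrich club cells, the sort kept lineage-negative cells with CD326 (the epithelial adhesion protein Epcam) and an intermediate amount of CD24. Each library was made from RNA pooled from 4 mice of 1 genotype. There is thus 1 library per genotype, with no replicate error and no p-value for any difference, and effects of the activator, of active Cre and of the deletion cannot be told apart.

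In Notch signalling, a Jagged or Delta-like ligand on one cell binds a Notch receptor on its neighbour, proteases cut the receptor, and its freed inner part joins the DNA-binding protein Rbpj in the nucleus to switch on target genes. The best-known targets are the Hes and Hey repressors and Nrarp, which feeds back on the receptor. In the mouse airway, active Notch keeps progenitors on the club cell path, and its loss turns them towards the ciliated fate. Mst1 and Mst2, listed under the symbols Stk4 and Stk3, are Hippo pathway kinases that restrain the coactivators Yap and Taz, partners of the Tead transcription factors.

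Levels are given as FPKM, fragments scaled by transcript length and library size, and can be compared between genes because they are scaled by length. About 8340000 reads lay on the listed transcripts in the CKO library and 8770000 in the control library, taking 47.1 bases of coverage as 1 read. Stk4 had an FPKM of 4.71 in the CKO library and 5.38 in the control library, and Stk3 had 7.09 and 7.28 in the same order. The labels do not state which exons Cre removes, so these whole-transcript values do not check the deletion. Markers of club cells and of surfactant-producing alveolar type 2 cells were both abundant. Cyp2f2 of club cells had an FPKM of 5305 in the CKO library and 4694 in the control library, and Sftpc of type 2 cells had 10270 and 7888. The club cell marker Scgb1a1 is listed at 0 in both libraries with a status that marks a failed estimate.

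The response genes and receptors had FPKM ratios below 1, CKO library over control, and Jag1 and Jag2 had ratios above 1. The 95% interval for counting error, described below, excluded 1 for Notch1, Hes1 and Nrarp. It included 1 for Notch2, Notch3, Hey1, Jag1 and Jag2. Nrarp differed most among members with FPKM of at least 1, at 0.540 times the control level. Hes1, the most abundant member, was at 0.846 times, Notch1 at 0.825 times and Notch2 at 0.951 times. Jag1 was at 1.02 times the control level. FPKM ratios were below 1 for 8 of the 10 members and above 1 for 2. Among all genes with FPKM of at least 1 in either library, 36.8% were lower in the CKO library. The 8 include Dll1 and Lfng, which lie below that level and rest on at most 24 reads per library. Without them the count was 6 of 8. In RNA pooled from sorted cells, fewer cells of a type and less RNA per cell cannot be told apart, and this holds for every difference given here.

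A gene was called measured when either library gave it an FPKM of at least 1, and 9945 were. A measured gene was counted as apart when log2(FPKM + 1) differed by at least 1.5-fold, a scale that understates differences of low genes. On this scale 2.59% of measured genes were lower in the CKO library and 3.02% were higher. The share of higher genes among those apart was 53.8%, and 39.0% when differences were centred on the median gene. Of the members, 8 were measured; Dll1 and Lfng were not, and Hey1 passed through its control value. Nrarp was lower by this rule, 7 members were within 1.5-fold and 0 were higher. Differences below 0 were found for 6 of the 8 measured members and for 36.8% of all measured genes. The median log2 difference was -0.18 over the 8 and 0.07 over all measured genes.

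**Figure D1:**
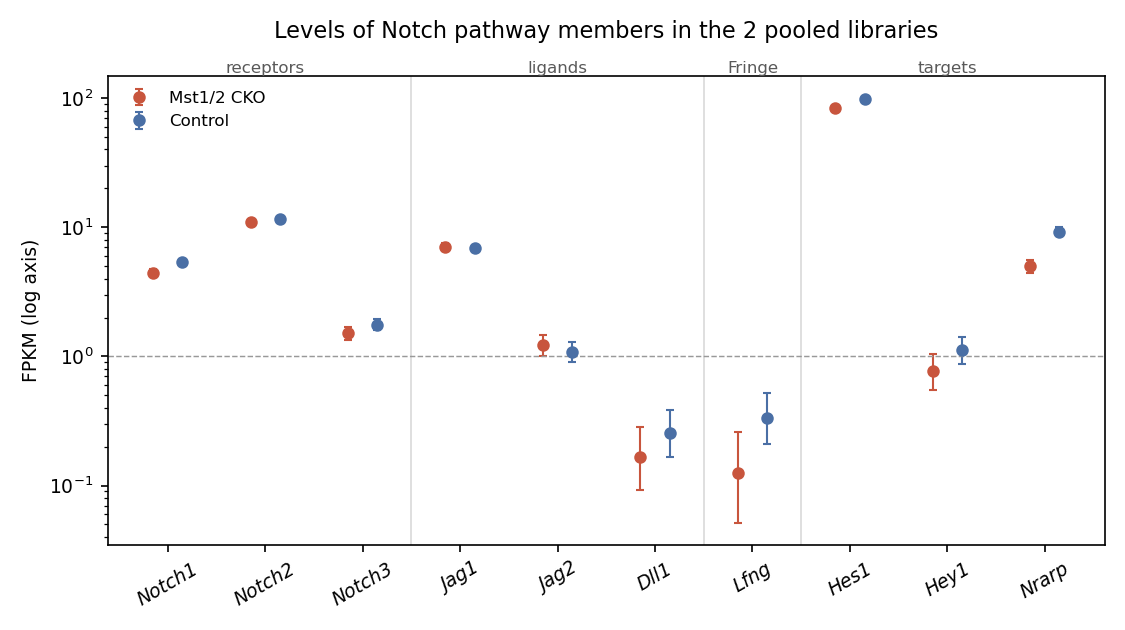
FPKM (log axis) of the 10 members in the CKO library (red, left of each pair) and the control library (blue, right), ordered by role; bars are 95% intervals for counting error and the dashed line marks FPKM of 1. Hes1 lies near 83.5 and 98.7, far above the other members, and Nrarp shows the widest gap among members above FPKM of 1, at 4.98 and 9.22.

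The 3 receptors, single-pass membrane proteins that are cleaved when ligand binds, were all expressed. Notch2 (chr3:97817461-97954290, mm9), the receptor most tied to club cell fate in mouse airway, had an FPKM of 10.9 in the CKO library and 11.5 in the control library. Notch1 (chr2:26313422-26359342) had 4.45 in the CKO library and 5.40 in the control library. Notch3 (chr17:32257838-32303797) was the lowest of the 3, at 1.52 in the CKO library and 1.77 in the control library. All 3 were lower in the CKO library, none by 1.5-fold.

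Counting error of each FPKM ratio was estimated as an exact (Clopper-Pearson) 95% interval from approximate reads; it leaves out variation between mice, sorts and preparations, and PCR copies make it too narrow. The Notch1 ratio of 0.825 had an interval of 0.760 to 0.895, on about 1023 reads in the CKO library and 1387 in the control library. For Notch2 the ratio was 0.951 (0.904 to 1.001), and for Notch3 it was 0.859 (0.735 to 1.003). The Notch1 interval thus lay below 1, and those of Notch2 and Notch3 reached just past it. Among all measured genes 12.3% had an interval below 1 and 29.7% an interval above 1, so an interval off 1 was common. Of the 8 measured members, 3 had an interval below 1 and 0 above.

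Within the receptor family the balance was similar in both libraries. Notch2 made up 64.4% of the summed FPKM of Notch1 to Notch4 in the CKO library and 61.3% in the control library. Notch1 gave 26.2% in the CKO library and 28.8% in the control library. Notch4, a receptor typical of blood vessel lining, contributed little, with an FPKM of 0.0724 in the CKO library and 0.0965 in the control library.

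Among the ligands, which are membrane proteins that activate Notch on neighbouring cells, Jag1 was the most abundant in both libraries. Jag1 (chr2:136907187-136942256) had an FPKM of 7.03 in the CKO library and 6.89 in the control library, a ratio of 1.02 (0.932 to 1.12). Jag2 (chr12:114146801-114167706) had 1.22 in the CKO library and 1.09 in the control library, a ratio of 1.12 (0.868 to 1.47). Both intervals included 1, and neither direction was stable. Jag1 turned to -0.02 after conversion to TPM (FPKM rescaled to an equal total per library), to -0.04 with centring on the median gene, to -0.06 with upper-quartile scaling and to -0.08 with a length trend removed, all on the log2 scale, and Jag2 to -0.003 with the length trend removed. Jag1 gave 80.5% of the summed FPKM of the Jagged and Delta-like ligands in the CKO library and 81.9% in the control library.

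The Delta-like ligands were near the detection limit. Dll1 (chr17:15504318-15512787) had an FPKM of 0.167 in the CKO library and 0.254 in the control library, on about 14 and 24 reads in that order. Its ratio of 0.657 (0.312 to 1.31) did not set the libraries apart at this depth. Dll4, the main Delta-like ligand of arteries, had 0.111 in the CKO library and 0.136 in the control library. Dll3, a divergent ligand that acts mostly inside the cell, had 0.203 in the CKO library and 0.0498 in the control library, the control value resting on about 3 reads. Its ratio of 4.07 had an interval of 1.08 to 22.9. The non-canonical ligand Dlk2 had 0.216 in the CKO library and 0.561 in the control library, a ratio of 0.385 (0.150 to 0.900). Dlk1 had 0.0875 in the CKO library and 0.0337 in the control library, and Dner had 0.194 and 0.124 in the same order. None of these 5 further ligands reached FPKM of 1, and they went both ways.

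Lfng (chr5:141083295-141091499) encodes a Fringe enzyme that adds sugars to the receptor and changes its response to Delta-like and Jagged ligands. Its FPKM was 0.125 in the CKO library and 0.333 in the control library, on about 7 and 21 reads in that order. The ratio of 0.376 had an interval of 0.134 to 0.910, which reached past 1 (0.0593 to 1.30) when 1 read was taken as 100 bases. At this depth neither the size nor the direction of the Lfng difference was fixed. Rfng was the leading Fringe gene, with an FPKM of 2.30 in the CKO library and 2.84 in the control library, and Lfng itself was below FPKM of 1 in both libraries.

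Response genes spanned the widest range of levels. Hes1 (chr16:30065443-30067882), a repressor that blocks neuroendocrine fate in the airway, had an FPKM of 83.5 in the CKO library and 98.7 in the control library. Its ratio of 0.846 (0.806 to 0.888) rested on about 2933 and 3876 reads in that order. Hes1 was the highest of the 10 members in both libraries and stood above 98.0% of measured genes in the CKO library and 98.4% in the control library. Its level was 7.62 times that of Notch2 in the CKO library and 8.57 times in the control library. Of 296 measured genes with a mean level within 2-fold of that of Hes1, 54 had a difference as low or lower, so a difference of this size was not rare.

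Hey1 (chr3:8663359-8667038), a related repressor prominent in vessels, was far lower. It had an FPKM of 0.769 in the CKO library and 1.12 in the control library, on about 41 and 67 reads in that order. The ratio of 0.685 had an interval of 0.452 to 1.02, which included 1, so Hey1 was not set apart at this depth.

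Nrarp (chr2:25036278-25038852) encodes a small ankyrin-repeat protein that binds the active Notch complex and damps it. The FPKM of Nrarp was 4.98 in the CKO library and 9.22 in the control library, on about 311 and 643 reads in that order. Its ratio was 0.540 (0.471 to 0.620), which is 1.85-fold lower, and its log2 difference of -0.77 was past 1.5-fold. Among all 9945 measured genes, 153 had a difference as low or lower (1.54%), and among the 3946 with a mean level within 2-fold of that of Nrarp, 38 did (0.963%). Nrarp was past 1.5-fold in the same direction under all 10 alternative settings, from -0.77 to -0.92. Not all of these were checks on Nrarp. The settings for filter, highest row and estimate status left it at -0.77 because its value does not depend on them. A smaller pseudocount or none could only widen the difference. Its transcript model spans 2575 bases of the genome for a transcript of 2575 bases, a gene with no intron, so reads from unspliced RNA or residual DNA would count towards it. Relative to Notch1, Nrarp was at 1.12 times in the CKO library and 1.71 times in the control library.

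**Figure D2:**
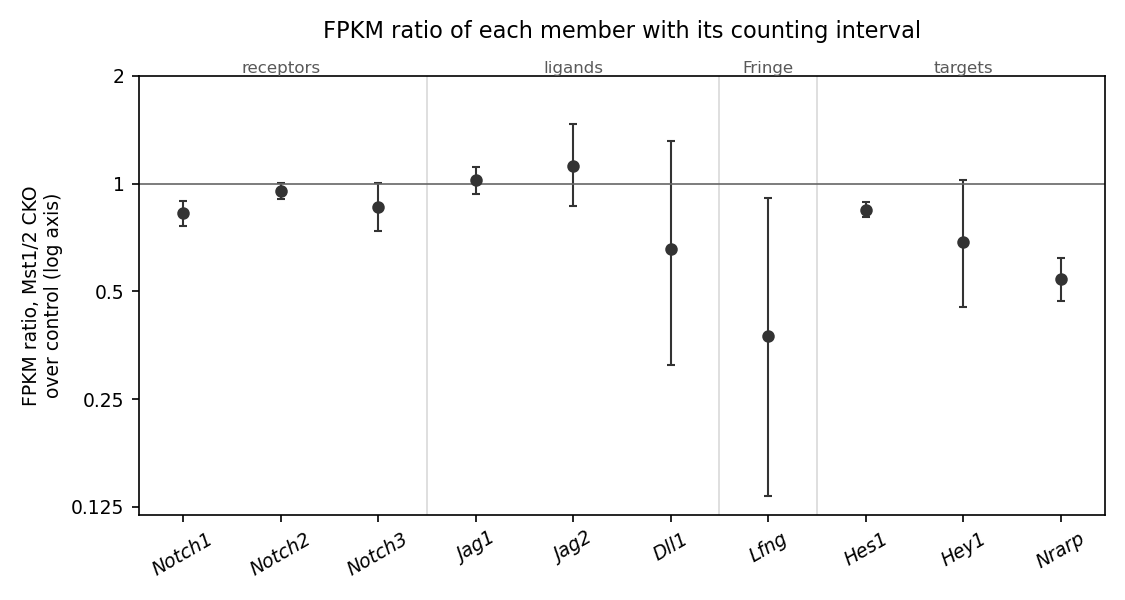
FPKM ratio of each member, CKO library over control (log axis), with the exact 95% interval for counting error. The intervals of Notch1 (0.760 to 0.895), Lfng (0.134 to 0.910), Hes1 (0.806 to 0.888) and Nrarp (0.471 to 0.620) lie below 1, and the other 6 include 1.

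The order of levels was nearly the same in both libraries. In the CKO library it ran Hes1, Notch2, Jag1, Nrarp, Notch1, Notch3, Jag2, Hey1, Dll1, Lfng from high to low. In the control library Nrarp stood above Jag1, Hey1 above Jag2 and Lfng above Dll1, and the order was otherwise equal. Neighbours whose counting intervals overlapped were Nrarp (4.45 to 5.57) and Notch1 (4.18 to 4.73), Notch3 (1.35 to 1.70) and Jag2 (1.01 to 1.46), Jag2 and Hey1 (0.551 to 1.04), and Dll1 (0.0922 to 0.283) and Lfng (0.0509 to 0.261) in the CKO library. In the control library they were Hey1 (0.870 to 1.43) and Jag2 (0.898 to 1.30), and Lfng (0.210 to 0.519) and Dll1 (0.166 to 0.385). Nrarp and Jag1 exchanged places with intervals that did not overlap in either library.

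**Figure D3:**
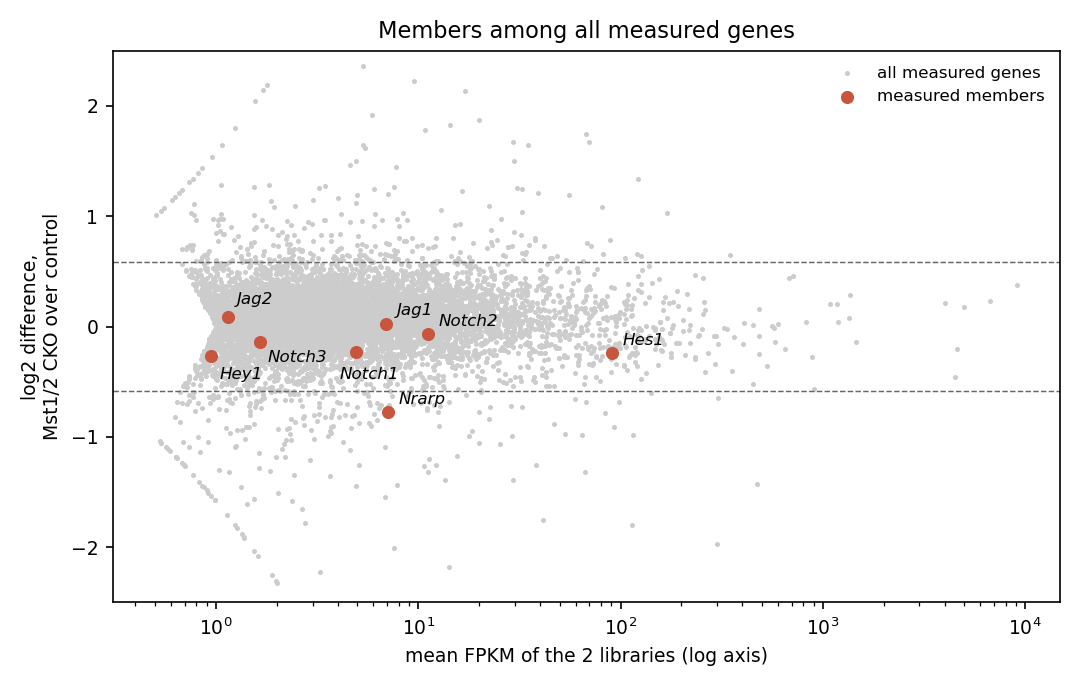
Log2 difference on the log2(FPKM + 1) scale against mean FPKM (log axis) for all 9945 measured genes (grey) and the 8 measured members (red); dashed lines mark 1.5-fold, and 15 genes lie outside the axis. Nrarp at -0.77 lies below the lower line, and the other 7 lie between the lines.

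The sequence before the gene start is shown for 3 members: Nrarp and Lfng, which had the lowest ratios, and Notch1, the receptor whose interval lay below 1. RefSeq entries (GRCm38.p6, a later build than the mm9 of the expression tables) matched 8 of the 10 members, all but Hes1 and Hey1, with 9 windows of 250 bases in all. Searches covered both strands for TGGGAA, the core bound by Rbpj, GGAATG, the core bound by Tead factors, and CACGTG, the E-box of many bHLH factors. The E-box was added after the sequences were seen. Sequences run 5′ to 3′ on the gene's strand and end at the base before the start, and capitals mark matches.
Nrarp, plus strand of chr2:25180508-25180757: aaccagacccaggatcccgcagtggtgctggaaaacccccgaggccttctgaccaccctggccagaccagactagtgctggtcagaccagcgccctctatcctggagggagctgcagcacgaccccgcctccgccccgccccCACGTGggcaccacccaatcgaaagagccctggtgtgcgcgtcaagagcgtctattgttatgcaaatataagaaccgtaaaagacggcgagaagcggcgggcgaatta
Lfng, plus strand of chr5:140607091-140607340: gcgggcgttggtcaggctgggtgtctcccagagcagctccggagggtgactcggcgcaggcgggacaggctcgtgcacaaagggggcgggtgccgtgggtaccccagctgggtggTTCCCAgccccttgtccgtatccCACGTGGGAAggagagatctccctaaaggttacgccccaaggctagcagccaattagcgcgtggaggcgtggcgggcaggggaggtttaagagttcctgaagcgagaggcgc
Notch1, minus strand of chr2:26503823-26504072: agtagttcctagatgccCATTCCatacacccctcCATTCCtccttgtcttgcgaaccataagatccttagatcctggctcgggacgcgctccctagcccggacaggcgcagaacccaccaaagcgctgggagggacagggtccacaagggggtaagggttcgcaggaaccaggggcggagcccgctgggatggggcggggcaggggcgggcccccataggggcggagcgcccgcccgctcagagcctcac

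The Rbpj core was found in 1 of the 8 matched members, Lfng, against 21.6% of all 32851 promoter windows of the same length. Lfng held 2 matches, with the reverse-strand match TTCCCA 135 bases before the start and the forward match 108 bases before it. The forward match shares 2 bases with an E-box, in the run CACGTGGGAA. Nrarp held an E-box at a like distance, 108 bases before the start, without the Rbpj core. The E-box was found in 2 of the 8 members and in 6.02% of all windows. Because it was chosen after these sequences were seen, setting the 2 shares side by side is no test of enrichment. The Tead core was found in 1 of the 8, Notch1, as 2 reverse-strand matches 233 and 216 bases before the start, and in 12.6% of all windows. These matches are letters in the sequence, and binding was not measured here.

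The rest of the pathway, a list of 67 genes ordered by role, showed no member past 1.5-fold. Of the 46 that were measured, 0 were higher and 0 lower by this rule, 29 were above 0 (63.2% of all measured genes were) and 17 below, and the median log2 difference was 0.08, beside 0.07 over all measured genes. Counting intervals lay above 1 for 16 of the 46 and below 1 for 2, beside 29.7% and 12.3% of all measured genes. The widest differences were those of the gamma-secretase subunit Aph1a, with an FPKM of 3.04 in the CKO library and 1.76 in the control library, and the corepressor Tle4, with 5.003 and 3.31 in the same order. Both were named after their values were seen, and their FPKM ratios without a pseudocount were 1.73 and 1.51.

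Of the enzymes that modify and cut the receptor, 2 of 4 glycosyltransferases and 8 of 10 proteases and subunits were measured. Psenen, a gamma-secretase subunit, led them, with an FPKM of 63.8 in the CKO library and 63.9 in the control library. Ncstn, the gamma-secretase subunit that docks the substrate, had 10.2 in the CKO library and 10.9 in the control library. Of 8 measured proteases and subunits, 4 were above 0 and 4 below, beside 63.2% of all measured genes above 0. Among the glycosyltransferases, Poglut1, which adds glucose to the receptor's EGF repeats, had 3.40 in the CKO library and 2.50 in the control library, a ratio of 1.36 (1.11 to 1.67), whereas the ratio of Rfng was 0.812 (0.633 to 1.03), an interval that included 1.

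Genes for ligand and receptor uptake and turnover were led by ubiquitin ligases. Nedd4, which marks Notch for removal, had an FPKM of 63.2 in the CKO library and 64.5 in the control library. Itch, a relative of Nedd4, had 9.69 in the CKO library and 7.89 in the control library. Of the 11 measured genes of this role, 5 were above 0 and 6 below, beside 63.2% of all measured genes above 0.

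The nuclear complex and its corepressors lay close to 0. All 10 genes of the nuclear complex were measured, and 9 were above 0, with a median log2 difference of 0.10 that turned to -0.01 once a length trend was removed. Among all measured genes 63.2% were above 0, with a median of 0.07 that turned to -0.002 once that trend was removed. Crebbp, a histone acetyltransferase recruited by active Notch, had an FPKM of 13.6 in the CKO library and 12.0 in the control library, and its relative Ep300 had 12.7 and 11.6 in the same order. Of the 14 corepressor genes, all measured, 10 were above 0, with a median of 0.07 that turned to -0.004 with upper-quartile scaling and to -0.03 without the length trend. Ncor1, a scaffold for histone deacetylases, had 19.7 in the CKO library and 18.2 in the control library, and Aes, a short Groucho-type protein, had 22.7 and 19.2 in the same order.

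**Figure D4:**
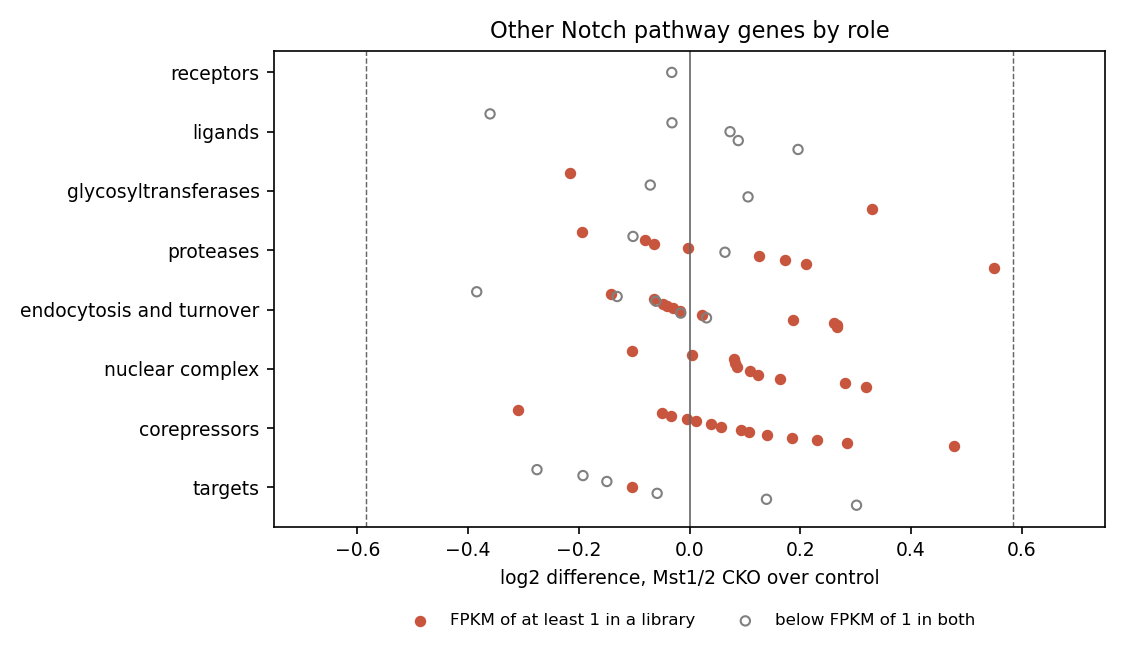
Log2 difference on the log2(FPKM + 1) scale of the 67 other pathway genes by role; filled points reached FPKM of 1 in either library, open points did not, and dashed lines mark 1.5-fold. All points lie between the lines, and 9 of the 10 genes of the nuclear complex lie right of 0, or 4 of the 10 once a length trend is removed. Of all measured genes, 63.2% had a difference above 0.

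The other Hes and Hey genes, which encode repressors related to Hes1, were low. Hes6, a Hes protein that opposes Hes1, was the one measured, with an FPKM of 0.976 in the CKO library and 1.12 in the control library. Hey2 had 0.210 in the CKO library and 0.383 in the control library, and Heyl, typical of smooth muscle, had 0.0510 and 0.166 in the same order, a ratio of 0.308 (0.110 to 0.866). Hes2 went the other way, with 0.688 in the CKO library and 0.370 in the control library, a ratio of 1.86 (1.12 to 3.22). Hes7 had 0.0664 in the CKO library and 0.291 in the control library, Hes3 had 0.192 and 0.0826 in the same order, and Hes5 was listed at 0 in the CKO library and at 0.0414 in the control library. Hes1 made up 96.6% of the summed FPKM of these 9 Hes and Hey genes in the CKO library and 96.5% in the control library.

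Markers of other cell types also differed, and several of those cells use Notch themselves. Among all measured genes 36.8% were below 0, and 2.59% were past 1.5-fold lower. Basal cell markers had a summed FPKM of 9.26 in the CKO library and 24.9 in the control library, with 5 of 5 measured members below 0 and 3 past 1.5-fold. Mucous cell markers summed to 10.1 in the CKO library and 31.4 in the control library, with 4 of 4 measured members past 1.5-fold lower and Tff2 listed at 0 in the CKO library. Mesenchymal markers summed to 8.43 in the CKO library and 19.4 in the control library, with 4 of 4 measured members below 0. Dcn, at 3.79 in the CKO library and 11.9 in the control library, and Mfap4, at 0.973 and 3.25, were past 1.5-fold. Col1a2 had an interval that included 1 (0.733 to 1.14). Of the 5 not measured, Acta2 had a ratio of 2.07 (1.05 to 4.30) and Col1a1 1.005, and Pdgfra, Pdgfrb and Cspg4 were below 1 with intervals that included 1. These mesenchymal genes were named after their values were seen. The sums of the basal, mucous and mesenchymal lists were lower in the same library as Nrarp, Hes1 and Notch1, and their part in those differences was not tested.

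Endothelial markers, which bear on Hey1, Nrarp, Notch4 and Dll4, summed to 6.93 in the CKO library and 11.1 in the control library. Most of that sum was Kdr, at 5.11 in the CKO library and 9.05 in the control library, a ratio of 0.565 (0.514 to 0.620). The other 7 of the 8 endothelial markers were below FPKM of 1 in both libraries and none was at 0; Pecam1 had 0.565 in the CKO library and 0.878 in the control library, and Cdh5 had 0.475 and 0.425 in the same order. Leukocyte markers summed to 6.46 in the CKO library and 13.4 in the control library, with 4 of 6 measured members past 1.5-fold lower (2.59% of all measured genes were). The other 2 measured were higher without reaching 1.5-fold on the log2(FPKM + 1) scale, Csf1r of macrophages at a ratio of 1.83 (1.43 to 2.37) and Cd79a of B cells at 2.02 (1.11 to 3.71), both named after their values were seen. A sort for lineage-negative, CD326-positive cells is meant to leave out leukocytes, and CD326 also selects against endothelial and mesenchymal cells; the labels do not name the lineage markers. The part of either list in the differences of the members was not tested.

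Club cell markers went both ways, with 4 of 7 measured members above 0, 1 past 1.5-fold lower and a summed FPKM of 10487 in the CKO library and 11815 in the control library. The 1 past 1.5-fold was Scgb3a2, a secreted club cell protein named after its values were seen, with an FPKM of 256 in the CKO library and 691 in the control library, a ratio of 0.371 (0.360 to 0.383). Ciliated cell markers, by contrast, summed to 50.8 in the CKO library and 32.0 in the control library, with 6 of 6 above 0 and 2 past 1.5-fold. Among all measured genes 63.2% were above 0, 3.02% were past 1.5-fold higher and 2.59% past 1.5-fold lower. Foxj1, the master regulator of motile cilia, had 3.38 in the CKO library and 2.41 in the control library, a ratio of 1.40 (1.14 to 1.73). Alveolar type 1 markers summed to 252 in the CKO library and 87.0 in the control library, with 6 of 7 measured members past 1.5-fold higher. Type 2 markers summed to 13990 and 11207 in the same order, with 8 of 8 above 0 and 0 of 8 past 1.5-fold. Neuroendocrine markers summed to 12.9 in the CKO library and 15.3 in the control library, with 2 of 4 measured members above 0. Several lists thus differed at once, and their part in the levels of the 10 members was not tested.

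**Figure D5:**
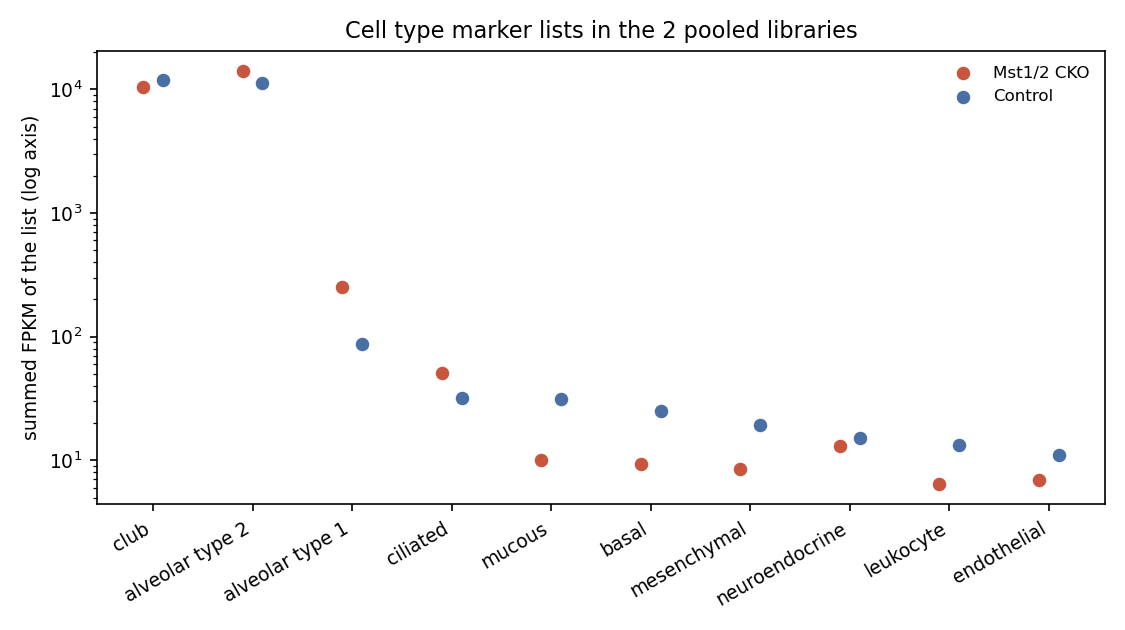
Summed FPKM (log axis) of 10 cell type marker lists in the CKO library (red, left) and the control library (blue, right). Alveolar type 1 (252 and 87.0), ciliated (50.8 and 32.0) and alveolar type 2 (13990 and 11207) sums are higher in the CKO library. The mucous, basal, mesenchymal, leukocyte, endothelial, club and neuroendocrine sums are lower.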

How the data were processed

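RNA-seq was done on 2 libraries, each from pooled RNA of 4 mice of 1 genotype, made with the Nextera XT kit per the labels' protocols. The submitters' processing notes name TopHat, Cufflinks and build mm9, without versions, settings or strandedness. Each of 28107 RefSeq transcript rows holds, per the file headers, FPKM and coverage (a signal: mean read depth over the transcript) as the authors deposited them. Coordinates count from 1.

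FPKM was summed per symbol. The difference is log2((FPKM + 1) CKO over (FPKM + 1) control), for genes with FPKM of at least 1 in either library. Read counts are not in the tables; coverage times length, over 47.1 bases, gave approximate reads. The 47.1 bases are the median of single-transcript rows worth 25 to 75 bases, an assumption. Whole reads were not recovered (23.2% and 23.7% of rows worth 1 to 10 reads lay within 0.1 of a whole read), so no count model was run. FPKM ratios carry exact Clopper-Pearson 95% intervals scaled by the depth ratio of 0.895, and levels exact Poisson intervals. For genes with several rows, FPKM depends on how Cufflinks shared reads. Functions were run on simulated whole reads, which these data do not give, so that run does not check the intervals reported here.

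The members and lists were chosen with earlier results of these data known. Named were all 10 members, and of the 67 other pathway genes every receptor, ligand and target, any past 1.5-fold, and the 2 most abundant of each other role. Of the marker lists, Dnah5 of ciliated cells had no row under its symbol. Analysis used Python 3.11.15, pandas 2.3.3 and scipy 1.17.1.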

Additional observations from a re-analysis of the deposited data

How the results depend on the processing

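Over the alternatives, Nrarp stayed past 1.5-fold lower, and Notch1, Notch2, Notch3, Hes1 and Hey1 stayed below 0 wherever they passed the filter. The settings for filter, highest row and estimate status could not move the value of a member that passed. Conversion to TPM added Lfng, giving 2 lower members. TPM values are larger than FPKM, which summed to 150932 in the CKO library and 145668 in the control library. The pseudocount and filter stayed at 1, so both were weaker and genes below FPKM of 1 could enter, Lfng among them. Counts with TPM are thus over a larger set of genes than the others. With TPM, other pathway genes past 1.5-fold numbered 3 higher and 5 lower. The higher ones were Aph1a, Dll3 and Hes2, and the lower ones Dlk2, Hes7, Hey2, Heyl and Neurl3. With a pseudocount of 0.1, 1 was higher (Aph1a), without a pseudocount 2 (Aph1a and Tle4), and with the highest row per symbol 1 was higher (Aph1a) and 1 lower (Psen2); Aph1a, Tle4, Neurl3 and Psen2 were named after their values were seen. Of all measured genes, those higher and lower numbered 300 and 258 as reported, 614 and 476 with a pseudocount of 0.1, 662 and 475 without one, 161 and 104 with a filter at FPKM of 5, and 955 and 1237 with TPM. The share of higher genes among those apart, 53.8% as reported, was 39.0% with median centring, 38.7% with upper-quartile scaling and 43.6% with TPM. Members whose counting interval excluded 1 numbered 4 as reported, 7 when 1 read was taken as 36 bases (adding Notch2, Notch3 and Hey1) and 3 when it was taken as 100 bases (without Lfng). Other causes of these shifts were not tested. No paired analysis was possible because each genotype has 1 library. For the same reason no library could be left out. Depth limits Dll1 and Lfng most, on at most 24 reads per library.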
